A study of Mus musculus with 24 samples.

Results

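Sox2 binding was mapped by chromatin immunoprecipitation with sequencing (ChIP-seq) in mouse embryonic stem cells of the V6.5 line (strain C57BL/6-129), in 1 asynchronous library and 2 mitotic libraries that carry the same project code in their labels. The 3 peak lists held 2986 peaks (asynchronous), 4537 peaks (mitotic 1) and 1940 peaks (mitotic 2), which make up 3.81% of the 248259 peaks in the 17 lists of the series. Peaks of the 3 lists that shared at least 1 bp were merged, which gave 5667 Sox2 regions. For each region it was recorded which of the 3 lists had a peak there. The series maps Klf4, Oct4, Sox2 and the histone mark H3K27ac in asynchronous and mitotic cells, to ask which elements stay occupied during mitosis.

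All groups used here were V6.5 cells grown with LIF and serum on irradiated feeder cells, then expanded without feeders in a MEK inhibitor (PD98059) and a Gsk3 inhibitor (Chir99021), and fixed in 1% formaldehyde for 10 minutes. Asynchronous cells were a cycling population with no arrest. Mitotic cells had 7 hours in nocodazole, given in the labels as 100 ug/ml, and were collected by shake-off, so they are cells arrested in mitosis by a drug and not cells passing through it. All groups are 1 cell line, and the labels do not say whether libraries came from separate cultures. Besides Sox2, the values below use Oct4 (1 asynchronous and 2 mitotic libraries) and Klf4 (1 library of each state) from the same project code, and H3K27ac (2 libraries of each state) from other project codes. A further 2 asynchronous and 2 mitotic Klf4 libraries, also of other project codes, are used where they are named. In these Klf4 libraries and in the H3K27ac libraries, the asynchronous and mitotic libraries carry different project codes. Purity of the mitotic cells cannot be read from peak lists.

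Sox2 is an HMG-box transcription factor that bends DNA in the minor groove, and in embryonic stem cells it binds many enhancers beside Oct4, a POU-domain factor, often at a composite element in which a Sox site and an octamer-like site lie next to each other. Together with Nanog, Klf4 and other factors this pair keeps stem cells pluripotent. In mitosis chromosomes condense and transcription largely stops, and factors that stay on some of their sites are said to bookmark them. H3K27ac marks active enhancers and promoters.

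The sequences of 6 promoters under Sox2 regions are shown, all with Sox or octamer letters in the shown stretch. Other promoters under Sox2 regions hold no such letters there, and where the letters lie within a peak was not examined. Of the 6, 4 are in regions with a peak in all 3 lists. A further 1 is in a region with a peak in the asynchronous list alone and 1 in a region with a peak in both mitotic lists alone. Each runs 5′ to 3′ on the gene's strand, is cut to the stretch before the annotated start that lies under the region, and comes from RefSeq's GRCm38.p6 table, the build the lists call mm10. Capitals mark CATTGT or CTTTGT (Sox core), ATGCAAAT (octamer), or a composite of CATTGT followed within 3 bases by ATGCA, each searched on both strands. Nanog, the homeobox pluripotency factor, is shown at chr6:122707239-122707488 (plus strand), with its composite in capitals, in which the Sox core and the composite letters overlap. Nrarp, a Notch pathway inhibitor, is at chr2:25180536-25180757 (plus strand), Mtf2, a Polycomb accessory protein, at chr5:108065424-108065673 (plus strand), and Mobp, a myelin protein gene, at chr9:120149492-120149741 (plus strand). Lin28a, the RNA-binding protein that blocks let-7 maturation, is at chr4:134018837-134018941 (minus strand) and had a Sox2 peak in the asynchronous list alone. Lpar1, a lysophosphatidic acid receptor, is at chr4:58499404-58499653 (minus strand) and had Sox2 peaks in the mitotic lists alone.
Nanog: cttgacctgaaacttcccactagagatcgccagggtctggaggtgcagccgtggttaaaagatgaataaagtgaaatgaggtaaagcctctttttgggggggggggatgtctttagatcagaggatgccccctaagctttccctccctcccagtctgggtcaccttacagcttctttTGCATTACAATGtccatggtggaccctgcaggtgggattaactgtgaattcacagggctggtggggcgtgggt
Nrarp: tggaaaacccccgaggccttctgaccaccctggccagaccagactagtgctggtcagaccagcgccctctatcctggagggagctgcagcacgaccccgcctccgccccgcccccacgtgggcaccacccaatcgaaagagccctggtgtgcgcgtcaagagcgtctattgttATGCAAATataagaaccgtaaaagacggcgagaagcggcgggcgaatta
Mtf2: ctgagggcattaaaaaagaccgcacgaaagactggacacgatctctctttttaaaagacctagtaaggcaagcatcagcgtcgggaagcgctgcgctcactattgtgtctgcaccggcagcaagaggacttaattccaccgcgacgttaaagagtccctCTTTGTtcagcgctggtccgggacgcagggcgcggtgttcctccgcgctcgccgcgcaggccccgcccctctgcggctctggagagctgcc
Mobp: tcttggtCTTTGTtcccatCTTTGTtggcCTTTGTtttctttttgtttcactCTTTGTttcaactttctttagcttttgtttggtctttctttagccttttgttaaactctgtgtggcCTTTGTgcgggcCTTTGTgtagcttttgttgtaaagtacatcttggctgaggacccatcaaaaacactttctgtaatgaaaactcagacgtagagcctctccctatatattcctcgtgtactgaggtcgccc
Lin28a: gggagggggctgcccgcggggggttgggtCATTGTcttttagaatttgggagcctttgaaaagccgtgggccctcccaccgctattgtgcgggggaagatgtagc
Lpar1: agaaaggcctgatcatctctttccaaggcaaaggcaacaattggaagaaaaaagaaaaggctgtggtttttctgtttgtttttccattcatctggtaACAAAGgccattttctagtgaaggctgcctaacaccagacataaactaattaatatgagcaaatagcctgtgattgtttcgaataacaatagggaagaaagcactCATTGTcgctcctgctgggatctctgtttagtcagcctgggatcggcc

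At these promoters the deposited fold enrichment, which is the peak caller's own value for each peak and is used only to describe peaks within a list, was 6.82 in asynchronous cells, 6.18 in mitotic 1 and 5.76 in mitotic 2 at Nanog. All 3 Oct4 lists had a peak there. Nrarp had folds of 16, 9.14 and 5.59 in the same order and a peak in all 3 Oct4 lists. Mtf2 had 10.9, 8.1 and 8.12, with an Oct4 peak in the asynchronous list and in neither mitotic list. Mobp, whose shown stretch holds 6 copies of CTTTGT, had 9.21, 22.8 and 19, and no Oct4 list had a peak there. The Lin28a peak had a fold of 4.68, and no Oct4 peak lay there in any of the 3 lists. Lpar1 had 10 in mitotic 1 and 7.07 in mitotic 2.

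Of the 2972 regions with an asynchronous peak, 1217 had a peak in both mitotic lists (40.9%, 95% Wilson interval 39.2 to 42.7), and these are called kept. A further 836 had a peak in mitotic 1 alone (28.1%) and 74 in mitotic 2 alone (2.49%). The asynchronous peak stood alone at 845 regions (28.4%, 26.8 to 30.1), called lost, which means only that no mitotic peak was listed. Both mitotic lists and not the asynchronous list had a peak at 422 regions (7.45% of all 5667), called mitotic-only, and 2061 regions had a peak in mitotic 1 and no other list and 212 in mitotic 2 and no other list. Intervals cover counting error only, the read depth behind the lists is unknown, and with 1 asynchronous library no test between the states can be made.

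The share of asynchronous regions found again was 69.1% in mitotic 1 and 43.4% in mitotic 2, a mean of 56.3% ± 18.1 (SD, n = 2). The mitotic libraries thus differed by 25.6 percentage points from each other, and the longer list found more. When each list was cut to its 1940 peaks with the lowest p-values, the shares were 57.7% and 55.4%. The mitotic libraries did not find each other much more often: 61.9% of mitotic 1 regions were in mitotic 2 and 62.3% of mitotic 2 regions in mitotic 1. On these lists of equal length the overlap between states therefore lay 4.2 to 6.9 points under the overlap of mitotic replicates, and their Wilson intervals were 53.2 to 59.9 between states, read from the asynchronous list, and 59.7 to 64.4 between replicates. As shares of the regions in either list, the values were 40.5% and 38.5% between states and 45% between the mitotic libraries. No second asynchronous library was analysed here, so the overlap of asynchronous replicates was not measured.

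**Figure D1:**
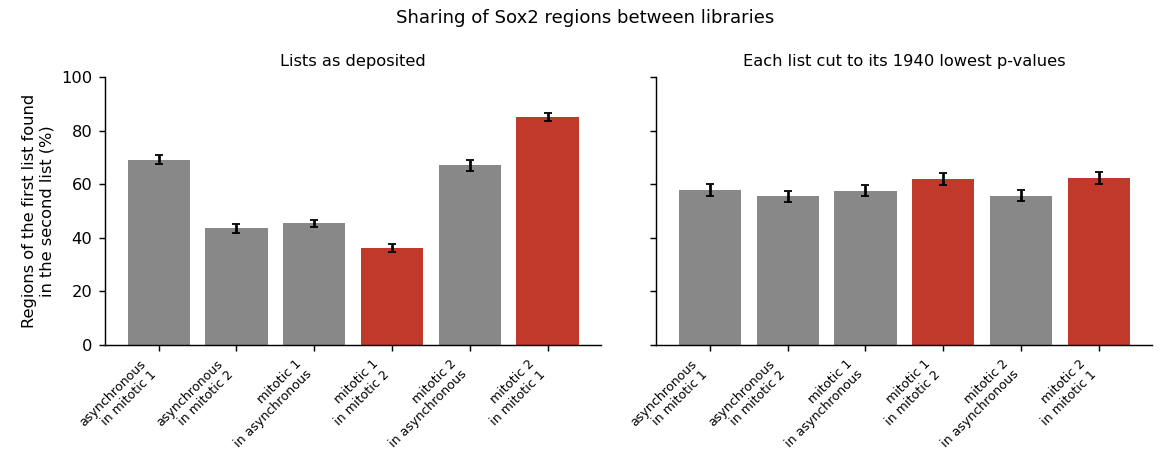
Bars give the percentage of regions of a first Sox2 list that had a peak in a second list, for the 6 ordered pairs of libraries; error bars are 95% Wilson intervals, grey bars join the states and red bars join the mitotic libraries. With lists as deposited (left) the values span 36.1% to 85.1%, and with lists of 1940 peaks (right) they span 55.4% to 62.3%.

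Inside the kept regions, the order of peaks was more alike between the mitotic libraries than between the states. Over the 1217 kept regions the rank correlation (Spearman's rho, across regions, which are not independent replicates) of the deposited fold was 0.34 between asynchronous and mitotic 1, 0.356 between asynchronous and mitotic 2, and 0.552 between the mitotic libraries. Kept regions had median folds of 7.13, 8.56 and 5.99 in the asynchronous, mitotic 1 and mitotic 2 lists, against 5.82, 5.61 and 5.46 over each whole list. Lost regions had a median asynchronous fold of 5.07 and mitotic-only regions had 5.95 and 5.09 in mitotic 1 and mitotic 2.

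Recovery went with the strength of the peak in asynchronous cells. In the strongest decile (10 equal groups) by deposited −log10 p, 295 of 298 regions (99%) had a peak in mitotic 1 and 275 (92.3%) in mitotic 2, and 2 were lost. In the weakest decile the shares were 48.3% and 19.5%, and 49.7% of regions were lost. The rise was not strictly step by step, since the next decile lay below the weakest one in both libraries (44.4% and 17.2%). Ranking by fold gave 98.3% and 90.6% in the strongest decile, but the weakest decile by fold (1.81 to 4.65) had more recovered regions (54.7% and 28.2%) than the next 2 deciles. Read from the mitotic side, 93.4% of the strongest decile of mitotic 1 regions and 94.3% of the strongest decile of mitotic 2 regions had an asynchronous peak, against 25.1% and 44.6% of the weakest deciles.

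**Figure D2:**
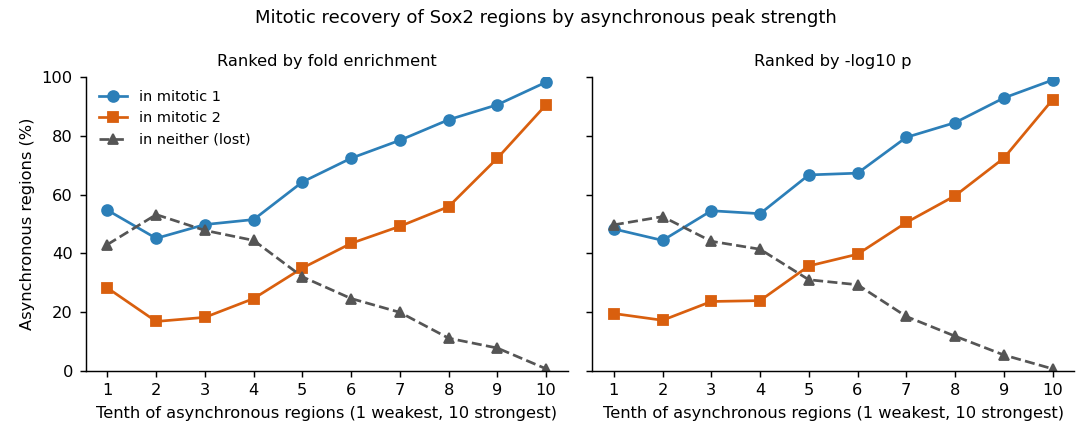
Percentage of asynchronous Sox2 regions with a peak in mitotic 1 (circles), in mitotic 2 (squares) or in neither (triangles), by decile of asynchronous fold (left) or −log10 p (right), with 297 or 298 regions in each decile. Both mitotic libraries pass 90% in the strongest decile, where 0.671% of regions were lost.

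Among the strongest kept regions, the first by asynchronous fold lay inside Rims2, a presynaptic active zone gene (chr15:39646439-39647068), with folds of 29.4, 24 and 20 in the asynchronous, mitotic 1 and mitotic 2 lists. Abca4, a retinal lipid transporter gene, held one with 22.5, 31.2 and 22.3. A region 568 kb from Slc8a1, the sodium-calcium exchanger, had 21.1, 25.7 and 22.4. All 3 regions had a peak in all 3 Oct4 lists and in both asynchronous H3K27ac lists. Gm6871 (23.7, 25.4 and 18.1) did as well, and Apol7a, of the apolipoprotein L family, had 24.3, 8.1 and 10.2, with an Oct4 peak in the mitotic lists alone.

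Regions recovered in 1 mitotic list alone are given by their highest asynchronous folds. Near Tmprss13, a serine protease gene, the values were 15.7 and 6.25 (mitotic 1), near Rcor2, a corepressor that works with the demethylase Lsd1, 15 and 9.93, and near Rax, an eye-field homeobox gene, 14.2 and 6.22. Tnrc18 (12.6 and 6.89) and Frmd4a (12.1 and 3.9) followed. In mitotic 2 alone the first was Ell2, a transcription elongation factor gene (10.2 and 4.8), followed by Atf7ip, a partner of the H3K9 methyltransferase Setdb1 (10 and 4.54), St6galnac3 (9.75 and 5.32), Cops7a (9.03 and 5.44) and Agps (8.49 and 3.82).

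The strongest lost regions lay inside Akap13, a kinase anchor gene (fold 11.9), inside Atp2b2, a calcium pump gene (10), inside Zscan10, a zinc finger gene of the pluripotency network (9.51), inside Gm31255 (9.31) and inside Msra, a methionine sulfoxide reductase gene (9.08). Zscan10 had H3K27ac peaks in all 4 lists of both states with no Oct4 peak and no Klf4 peak of the same project, and Atp2b2 had an Oct4 peak in all 3 lists, so a lost Sox2 region was not always one that mitotic Oct4 lacked.

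Ordered by the lower of their 2 mitotic folds, the first mitotic-only regions were near Eps8, an actin-regulating gene (13.1 in mitotic 1 and 9.02 in mitotic 2), Ramp3, a receptor-modifying protein (11.4 and 8.68), Pdk1, a pyruvate dehydrogenase kinase (14.5 and 8.68), Gnai1, a G-protein subunit (9.35 and 8.68), and Pot1a, a telomere protein (11.1 and 8.68). They lay between 6.16 and 492 kb from the gene end. All 5 overlapped H3K27ac peaks of both asynchronous lists, although the asynchronous Sox2 list had no peak there. Oct4 peaks of asynchronous cells were absent at all 5, and 3 of them had one in mitotic 2.

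Within lists of 1940 peaks, 877 regions were present in all 3, and their ranks by −log10 p could be set side by side. The region that moved up most, 160 kb from Irx4, a homeobox gene, ranked 1713 in asynchronous cells, 218 in mitotic 1 and 104 in mitotic 2. Regions near Mrpl42 (1916, 489 and 357), Cdh8 (1578.5, 150 and 104), Slc27a4 (1713, 263 and 379) and Sucnr1 (1713, 411 and 259.5) followed, where a shared rank is a tie. In the other direction a region 69 kb from Sox13, a SoxD family gene, ranked 108, 1873 and 1511. It was followed by Zfhx2 (175.5, 1877.5 and 1309.5), Urm1 (189, 1932.5 and 1068), Ms4a14 (342, 1902.5 and 1341) and Atp6ap1l (248, 1862.5 and 1140). At these 10 regions the mitotic libraries lay on the same side of the asynchronous rank, which the choice of the largest moves fixes.

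Oct4 peaks went with recovery. Asynchronous Oct4 peaks lay at 54.2% of kept regions (51.4 to 57), at 38.2% of those in mitotic 1 alone, at 20.1% of lost regions (17.6 to 23) and at 28% of mitotic-only regions. Taken per mitotic library, Oct4 was at 47.7% of the regions that mitotic 1 recovered and 21.2% of those it did not, and at 53.1% and 29.1% for mitotic 2. The gap was 25.2 ± 1.77 percentage points (SD, n = 2). Both values share the asynchronous Sox2 list and the Oct4 list, and 1217 of the 1291 regions found in mitotic 2 were also found in mitotic 1, so this SD, like that of the other gaps below, is not a spread of independent comparisons. The gap was 22 points with lists of equal length. Conversely, 56.2% of the 1174 asynchronous regions with Oct4 were kept and 14.5% lost, against 31% and 37.5% of the 1798 without.

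Since regions with Oct4 were also stronger (median asynchronous fold 6.43 against 5.45), recovery was set side by side within 3 equal groups of asynchronous fold, a split chosen after seeing the data. Among the weakest regions (fold up to 5.12), 31.5% of those with Oct4 and 14.4% of those without were kept. In the middle group the shares were 44% and 30%, and in the strongest group (6.69 to 29.4) 76.6% and 58.9%. In that last group the regions with Oct4 were still stronger, with a median fold of 8.87 against 7.94. In each group both mitotic libraries found more of the regions with Oct4, for example 67.8% against 43.3% in mitotic 1 among the weakest.

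Mitotic Oct4 peaks tracked mitotic Sox2 peaks more closely. Kept regions held an Oct4 peak of mitotic 1 in 43.8% and of mitotic 2 in 74% of cases, and lost regions in 5.21% and 19.9%. At mitotic-only regions these shares were 28.4% and 59%. Of the 660 kept regions with asynchronous Oct4, 636 (96.4%) also had a mitotic Oct4 peak, against 102 of 170 lost regions (60%). With the Oct4 lists cut to 1246 peaks each, mitotic-only regions had 9.95% with asynchronous Oct4 and 28.4% and 19% with mitotic Oct4, while lost regions had 8.17% against 5.21% and 2.49%. In these lists, mitotic-only Sox2 regions thus held mitotic Oct4 more often than asynchronous Oct4, and lost regions the reverse. Kept regions had 34.1% against 43.8% and 37.1%, and those in mitotic 1 alone 17.7% against 13.3% and 12.7%. The 2061 regions in mitotic 1 and no other Sox2 list hardly differed, with 4.66% against 5.43% and 4.8%. All the Oct4 and Sox2 lists carry the same project code, and the series has no Oct4 list of another code. Whether this pattern would hold outside the project was therefore not tested. For Klf4, the lists of other project codes did not show such a rise, but there the states differ in project code (below).

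**Figure D3:**
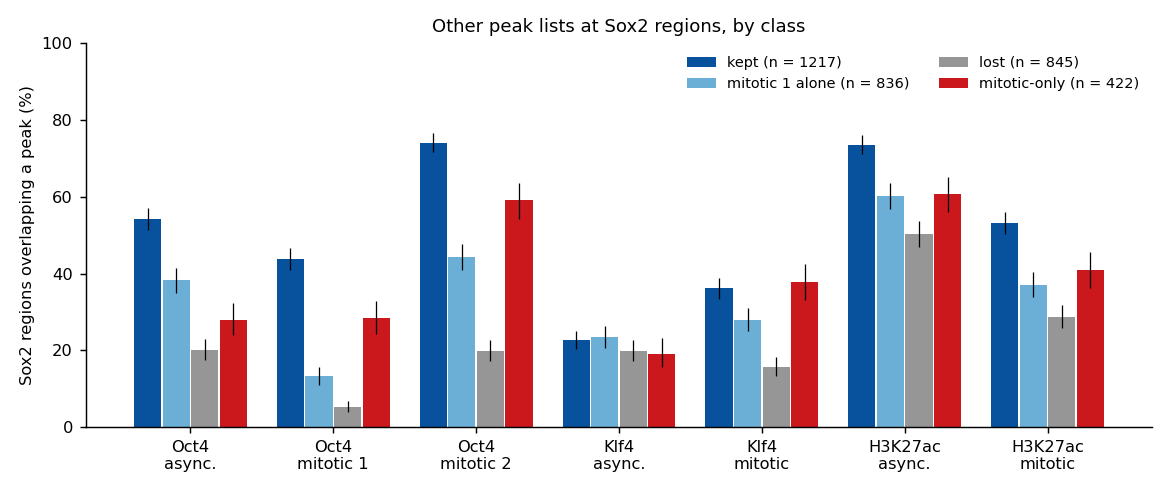
Percentage of Sox2 regions that overlapped a peak of each other list by at least 1 bp, for kept, mitotic 1 alone, lost and mitotic-only regions; error bars are 95% Wilson intervals and H3K27ac counts a peak in either of 2 libraries. Oct4 mitotic 2 peaks lay at 74% of kept, 19.9% of lost and 59% of mitotic-only regions, whereas the asynchronous Klf4 list of the Sox2 project lay at 19.2% to 23.4% of these 4 classes and the other Klf4 lists are not plotted.

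For Klf4, a zinc finger factor that binds beside Oct4 and Sox2 at many enhancers, the result depended on the list. In the asynchronous Klf4 list of the Sox2 project, peaks lay at 22.7% of kept and 19.8% of lost regions, and the gap per mitotic library was 2.08 ± 1.72 points. By the same list, regions with Klf4 and no Oct4 were kept in 30.5% of cases, those with neither factor in 31.1%, those with Oct4 and no Klf4 in 55.8% and those with both in 57.6%. The mitotic Klf4 list of the same project covered 36.2% of kept, 37.7% of mitotic-only and 15.6% of lost regions, although it had 8438 peaks against 16455.

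That rise from asynchronous to mitotic Klf4 was not seen in the other Klf4 libraries of the series. Outside the Sox2 project, however, the asynchronous and mitotic Klf4 lists carry different project codes, so state and project cannot be told apart there. With all 6 Klf4 lists cut to 3795 peaks, a setting chosen after seeing the data, kept Sox2 regions held a Klf4 peak in 23.2%, 25.3% and 9.29% of cases in the 3 asynchronous lists, the last of them from the project of the Sox2 libraries. In the mitotic lists the shares were 18.8%, 15.6% and 23.2%, again with the Sox2 project last. At lost regions the shares were 11.4%, 12.4% and 7.57% in asynchronous cells and 8.88%, 6.75% and 8.88% in mitotic cells, so kept regions held Klf4 more often than lost ones in all 6 lists, by the least in the asynchronous list of the Sox2 project. At mitotic-only regions they were 20.6%, 20.1% and 7.35% in asynchronous cells and 13.5%, 13.3% and 25.6% in mitotic cells. The states overlapped, and the asynchronous Klf4 list of the Sox2 project was the lowest of the 6 at both classes. The asynchronous Klf4 values in the paragraph above therefore rest on 1 list that stands apart.

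H3K27ac lay at 73.5% of kept regions, 50.3% of lost regions and 60.7% of mitotic-only regions in asynchronous cells, counting a peak in either library. In mitotic cells the shares were 53.1%, 28.8% and 40.8%. The asynchronous and mitotic H3K27ac libraries carry different project codes, so state and project cannot be told apart in these shares. The gap per mitotic Sox2 library was 17.5 ± 0.987 points for asynchronous and 18.2 ± 1.18 points for mitotic H3K27ac. Kept regions were also wider (median 431 bp against 162 bp for lost and 368 bp for mitotic-only). A merged region can span peaks of up to 3 lists, but regions in mitotic 1 and no other Sox2 list also had a median of 297 bp. What set these widths was not tested. In a fixed window of 200 bp the asynchronous gap was 4.17 points and the mitotic gap 11.8 points, while the Oct4 gap was 24.8 points in the same window. Regions with neither asynchronous Oct4, Klf4 nor H3K27ac made up 11.1% of kept, 26.1% of mitotic-only and 38% of lost regions. These shares use whole regions of unequal width and were not taken in the window. In the window asynchronous H3K27ac lay at 56.9% of kept, 49.5% of mitotic-only and 51.7% of lost regions.

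Lost regions lay closer to protein-coding genes. A gene end was within 1 kb at 7.81% of lost (6.19 to 9.82), 5.38% of mitotic 1 alone, 4.11% of kept (3.13 to 5.38) and 2.37% of mitotic-only regions. The gap per mitotic library was −2.71 ± 0.402 points, and −1.63 points with lists of equal length. Regions inside a protein-coding gene's span, where the gene table does not separate exons from introns, made up 45.7% of lost, 40.6% of kept and 35.1% of mitotic-only regions. At the far end, 10.7% of lost, 16.6% of kept and 23% of mitotic-only regions lay more than 100 kb outside any protein-coding gene. Of the 77 asynchronous regions that overlapped a promoter window of 250 bp before to 50 bp after a start, 22 were kept (28.6%, 19.7 to 39.5) and 36 lost (46.8%, 36 to 57.8), with a median fold of 5.6 close to that of all.

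Promoters under lost regions included those of Jag1, a Notch ligand (fold 4.94), Wnt5b, a Wnt ligand (7.17), the planar polarity genes Vangl2 (5.16) and Prickle1 (5.31), Ncapd2, a condensin subunit (4.92), and Srsf7, a splicing factor (5.12). Promoters of Otx2, a homeobox gene of primed cells (7.89 and 6.27), and Notch1 (5.69 and 3.68) had a peak in mitotic 1 alone. Besides the 4 shown above, kept promoters included Phc1, a Polycomb subunit (12.5, 7.16 and 8.2), Srrm4, a neural splicing factor (6.26, 7.68 and 4.75), and Lrrtm3, a synaptic adhesion gene (4.69, 7.6 and 4.99). These promoter genes were picked from the list for their known roles, after their values were seen.

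The Sox core was in 49 of the 87 promoters under an asynchronous region (56.3%) and in 28.6% of all 32851 RefSeq promoters. Kept and lost promoters had similar shares, 14 of 25 and 22 of 41. The octamer was in 6.9% of promoters under an asynchronous region and 1.74% of all. The composite was in 15 of all promoters (0.0457%), and 2 of these, the overlapping windows of the Nanog starts, lay under kept regions. Windows of 1 gene overlap, so these are counts of windows and not of independent sites. The letters outside promoters were not analysed here.

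Genes of the 11 lists were linked to a region that lay inside the gene's span or within 20 kb of its ends, and list counts are read against all genes. Of 21896 protein-coding genes 10.9% had an asynchronous region, and 38.7% of the 1998 linked regions were kept and 30.5% lost. Of the 9 classical Oct4-Sox2 targets, 7 had a region, a check that the antibody found genes known for Sox2 binding. Of the 18 fibroblast genes, 1 had a region (Col3a1, a collagen gene, with 10.8, 8.13 and 3.82). Since a Sox2 peak records Sox2 binding, this count is no measure of how many feeder cells were present. Of 20 endoderm and mesoderm genes 1 had a region (Gsc, lost, fold 4.69). Lists hold few regions, and regions near 1 gene are not independent.

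The classical targets had 13 regions, of which 7 were kept, 3 were in mitotic 1 alone and 3 were lost. Sox2 itself had a kept region 1.41 kb from its end (chr3:34653873-34654256), with folds of 21.1, 15.9 and 12.4 and an Oct4 peak in all 3 lists. Pou5f1, which encodes Oct4, had 1 kept region 1.73 kb from its end (chr17:35503794-35504302; 9.38, 9.08 and 3.95), 1 kept region at 15.3 kb (4.61, 6.09 and 4.85) and 1 lost region at 0.846 kb (4.57). At Nanog the promoter region was kept, and regions 4.24 and 3.91 kb away were lost, with asynchronous folds of 5.6 and 4.7. Beside them, a Nanog region at 4.74 kb had a peak in mitotic 1 and no other Sox2 list (5.14). The Nodal inhibitor gene Lefty1 had a kept region at 10 kb (8.66, 5.61 and 4.28) and one in mitotic 1 alone at 1.03 kb (8.19 and 4.66). Both regions of Spp1, the osteopontin gene, were kept (8.49, 10.7 and 4.92, and 10.4, 17.2 and 8.14). Fgf4 (4.35 and 4.74) and Fbxo15 (5.45 and 3.85) had regions in mitotic 1 alone, and Utf1 had no asynchronous region.

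**Figure D4:**
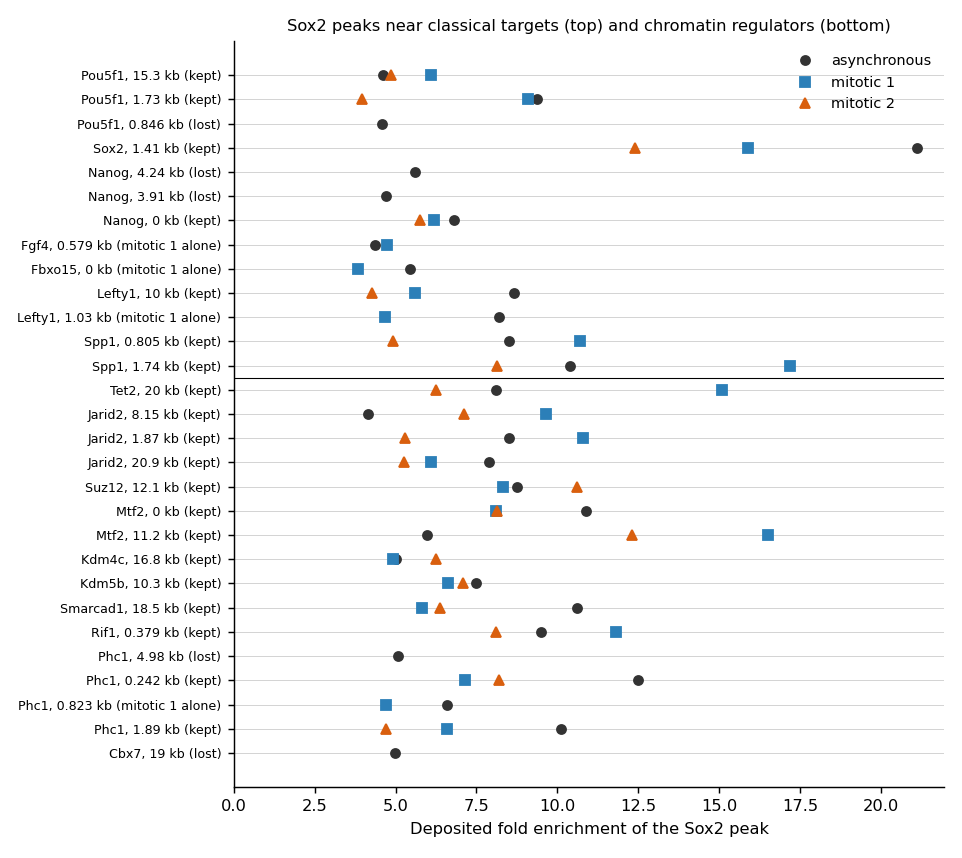
Deposited fold enrichment of each Sox2 peak near the classical targets (above the line) and the chromatin regulators (below), in the asynchronous list (circles), mitotic 1 (squares) and mitotic 2 (triangles), with the distance to the gene end and the class; no mark means no listed peak, and folds of different lists are not on 1 scale. All 3 marks are present at 13 of the 16 regions of chromatin regulators plotted, and 1 further region of the list is not plotted.

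Chromatin regulators had the highest kept share of the lists with more than 3 regions. Of their 25 genes 11 had a region, and 14 of the 17 regions were kept (82.4%, 59 to 93.8), 1 was in mitotic 1 alone and 2 were lost. Their median asynchronous fold was 8.11 against 5.82 for all linked regions, and in the decile of all regions with folds of 7.94 to 9.72 the kept share was 70.7%. Jarid2, which recruits Polycomb complex PRC2, had 3 kept regions (4.14, 9.66 and 7.1; 8.49, 10.8 and 5.28; 7.88, 6.08 and 5.27) and 1 mitotic-only region. Mtf2, another PRC2 partner, had its promoter and a region 11.2 kb from its end kept, the latter at 5.96, 16.5 and 12.3. Suz12, a core PRC2 subunit, had 8.75, 8.33 and 10.6, and Tet2, a methylcytosine dioxygenase, 8.11, 15.1 and 6.26. Rif1 (9.49, 11.8 and 8.09), Smarcad1 (10.6, 5.82 and 6.38), Kdm5b (7.5, 6.63 and 7.07) and Kdm4c (5.01, 4.93 and 6.26) had 1 kept region each. Phc1, of Polycomb complex PRC1, had 2 kept, 1 in mitotic 1 alone and 1 lost, and the region of Cbx7, also of PRC1, was lost (4.98).

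The signalling list had regions at 14 of 32 genes, and 11 of 19 regions were kept and 2 lost. The LIF receptor pair was kept throughout: Il6st, which encodes gp130, had 20.3, 13.5 and 11.2, and the 3 regions of Lifr had 8.11, 7.6 and 6.28, 12.7, 13.4 and 13.3, and 8.49, 11.7 and 7.88. Socs3, a feedback inhibitor of this pathway, had 12.5, 8.3 and 4.06. Of the Wnt effectors, Tcf7l1, a repressor, had a kept region at 1.29 kb (11.3, 12.8 and 10.2) and one in mitotic 1 alone, and Tcf7 a kept one (11.5, 4.88 and 6). The lost regions were near Spry1 (5.45) and the receptor gene Fzd5 (5.07).

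Naive pluripotency regulators had regions at 11 of 23 genes, and of 16 regions 8 were kept, 3 were in mitotic 1 alone and 5 lost. Kept ones included Dppa3 (13.1, 7.87 and 7.25), Trim28, a corepressor (11.9, 11.9 and 8.99), Rest, a repressor of neuronal genes (11.5, 11.5 and 10.3), Klf2 (8.62, 6.72 and 8.6, and 7.86, 10.6 and 9.6), Esrrb, an orphan nuclear receptor (8.45, 4.31 and 5.27), and Tbx3 (7.99, 7.19 and 7.3). Mybl2 had 1 lost region (5.13) and 1 kept region whose rank moved up (4.44, 9.22 and 7.25). The linked regions of Zscan10, Zfp42 and Prdm14 and a second Dppa3 region were lost. The lost Prdm14 region lay at 18.6 kb (5.07). Farther out, beyond the linking distance, Prdm14 had kept regions at 28.1 kb (7.53, 8.5 and 5.54) and 38.5 kb (4.39, 9.49 and 5.51). A region at 53.4 kb was in mitotic 1 alone (5.77 and 5.2). Sall4 had a mitotic-only region (4.27 and 4.82).

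Primed pluripotency genes, switched on as cells leave the naive state, had 8 regions at 5 of 15 genes, and 1 was kept (12.5%, 2.24 to 47.1), a region in the Wnt effector gene Lef1 (4.69, 6.04 and 5.72). Regions of Otx2, Lef1 and Foxd3 (7.56 and 4.88, and 6.64 and 4.59) were in mitotic 1 alone, and those of Etv5 and Sox11 were lost. The median asynchronous fold of the list was 6.04, near that of all linked regions, and the interval of its kept share held the share of all genes. Foxd3 also had a mitotic-only region (4.59 and 4.92).

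In the Sox family 7 of 19 genes had 10 regions, of which 5 were kept, 2 were in mitotic 1 alone and 3 lost. Besides Sox2, kept regions lay at Sox13 (15.3, 10.2 and 7.16), the SoxD gene Sox5 (10.6, 17.9 and 8.95), the SoxB2 gene Sox21 (5.92, 7.92 and 4.66) and Sox30 (4.65, 6.42 and 5.51). Sox5 also had a region in mitotic 1 alone (7.73 and 9.01) and a lost one (5.07), and Sox9 had one in mitotic 1 alone (5.07 and 6.36). Sox11 (8.44) and a second region of Sox13 (6.69) were lost, and Sox6 had a mitotic-only region (13.1 and 7.34). Sox1, Sox3 and Sox17 had no asynchronous region within 20 kb.

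Neural progenitor genes had 6 regions, with Nes (8.23, 5.27 and 4.69) and the Notch ligand Dll1 (8.42, 6.41 and 6.48) kept, Pax6 (4.68 and 3.85), Pax3 (8.87 and 6.27) and 1 of Msi1 (5.51 and 3.85) in mitotic 1 alone, and the other of Msi1 lost (5.07). Of the 19 mitotic cell cycle genes 3 had a region, kept near the checkpoint kinase gene Bub1 (5.83, 5.5 and 4.62), in mitotic 1 alone in Kif11 (5.25 and 4.67) and lost near Cenpa (5.51). Both housekeeping regions, near Tubb5 (6.1) and Gapdh (4.65), were lost.

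**Figure D5:**
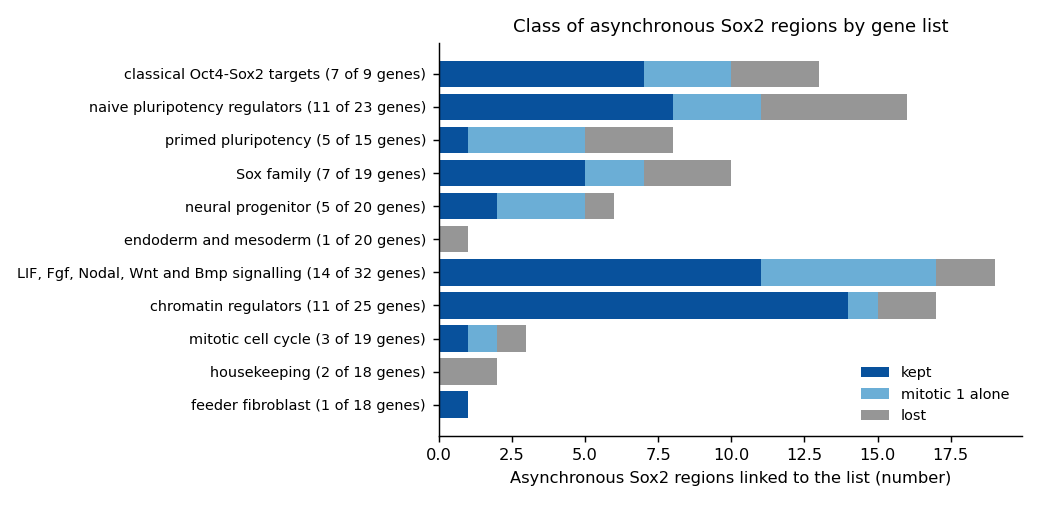
Number of asynchronous Sox2 regions linked to each gene list (inside the gene or within 20 kb), split into kept, mitotic 1 alone and lost; no linked region was in mitotic 2 alone, and the labels give how many genes of the list had a region. The chromatin regulators have 14 kept of 17 and the primed pluripotency genes 1 kept of 8.

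Of the 2391 genes with an asynchronous region, 334 had more than 1, 13 had 4 and 5 had 5. The 5 were Etl4, Pakap, Auts2, Ppp1r9a and Magi2, with spans of 263 to 1485 kb. Their regions did not share 1 class: Etl4 had 4 kept and none lost, Pakap 3 kept and 1 lost, Auts2 and Ppp1r9a 2 kept and 2 lost, and Magi2 1 kept and 1 lost. Among genes with 4 regions, all 4 of Vti1a, a vesicle SNARE gene, were kept (asynchronous folds 5.31 to 8.11), and all 4 of Gse1 were lost (4.35 to 4.9). Ebf1 and Epb41l4a had 3 kept and 1 lost each, and Arl15 and Btbd11 2 kept and 1 lost each. Phc1 was the shortest gene with 4, at 22.5 kb. Of the 60 genes with 3 or more regions, 3 had all of them kept: Vti1a, Jarid2 and Lifr. Over all genes 38.7% of linked regions were kept, and the count of 3 genes is not read as a trait of these genes.

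Sox2 recovery was set beside that of Oct4 with all 6 lists cut to 1246 peaks by −log10 p. Sox2 regions were found again in 56.5% and 56.1% of cases (56.3% ± 0.285, SD, n = 2) and Oct4 regions in 43.9% and 50.5% (47.2% ± 4.66, SD, n = 2). The mitotic libraries of the factors did not overlap, and the difference was 9.09 percentage points. The exact two-sided permutation test gave p = 0.33, the smallest that 2 against 2 libraries allow, so this design cannot reach 0.05. With lists as deposited, Sox2 had 69.1% and 43.4% and Oct4 25.7% and 62.7%, and the factors overlapped. Klf4 of the same project, with 1 mitotic library, had 47.9% at the same list length.

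Properties of the lists moved with these results. Mitotic 1 peaks were wider (median 335 bp) than asynchronous (201 bp) and mitotic 2 peaks (216 bp). Peaks with a q-value above 0.05 made up 3.18%, none and 22.5% of the asynchronous, mitotic 1 and mitotic 2 lists. The names of the peaks end in the number 2 for the asynchronous and mitotic 2 lists and 1 for mitotic 1, and in Oct4 the asynchronous and mitotic 2 lists carry 1 and mitotic 1 carries 2. In both factors the lists that carry 1 had the wider peaks (335 bp in Sox2 and 297 and 290 bp in Oct4, against 201, 216 and 194 bp). The labels do not say what this number stands for, and its part in the results was not tested.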

How the data were processed

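Each library has 1 narrowPeak list deposited by the authors, on mm10, and no list is of pooled libraries. The submitters' processing notes name cutadapt 1.8.1, Bowtie2 2.2.5, deepTools 2.3.6 and MACS2 2.1.1, with settings not given in the sources used here. Deposited values are the fold enrichment (a ratio) and the −log10 of p and q of each peak. All listed peaks have −log10 p of 5 or more. Some numbers in the peak names are skipped, and 20.2% to 46% of the numbers up to the highest are present in the Sox2 lists. A missing peak is not a measured absence of binding. Inputs have no list.

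Peaks sharing 1 bp were merged and overlaps counted in Python 3 with pandas and numpy; the interval code was tested on simulated peaks. Folds in a region are the highest of its peaks. Gene ends, spans and promoters came from RefSeq (GRCm38.p6, protein-coding genes for gene links). All 206 distinct list genes matched. Named regions were the 5 strongest of each class, the 5 largest rank moves each way, the strongest genes of each list with every Sox gene, and the genes with most regions. Some genes counted in the lists are not reported here by name. The members, lists and rules were chosen with earlier results of these data known. Comparisons between states have no test. The only test is an exact permutation of recovery between Sox2 and Oct4. Alternatives were a −log10 q minimum of 2, equal list lengths, a larger shared length, windows, gene distances and leaving out libraries.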

Additional observations from a re-analysis of the deposited data

How the results depend on the processing

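The kept share was 37.8% with only peaks of −log10 q of 2 or more and 45.3% with lists of equal length, and the lost share was 26.8% and 32.2%. Leaving out 1 mitotic library gave kept shares of 43.4% to 69.1%, lost shares of 30.9% to 56.6% and 634 to 2483 mitotic-only regions, the higher kept share and count without mitotic 2. Mean recovery stayed between 55.5% and 56.6% in the 3 alternatives run. The Oct4 gap was 22.7 points with the q-value minimum and 22 with equal lengths. The asynchronous H3K27ac gap was 10.3 points when the overlap had to cover 50% of the shorter peak without merging and 4.17 in 200-bp windows, and the mitotic one 13.6 and 11.8. The gap for gene ends was −1.9 with the q-value minimum, −1.63 with equal lengths, −3.13 with the larger overlap, −3.28 in 200-bp windows and −5.87 with a gene end within 5 kb. The cause of these moves was not tested beyond the construction of each setting. No gap changed sign.

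The Sox2 minus Oct4 difference lay between 5.8 and 12.4 points when 1 mitotic library was left out. It was 12.1 with lists as deposited (exact p = 0.667), 12 with the q-value minimum (exact p = 0.667) and 6.55 with lists shortened by fold (exact p = 0.33). With mitotic replicate numbers as a block (replicate block) it was 9.09, with an exact p of 0.5, the smallest 2 pairs allow, and crossing the Oct4 numbers as in the peak names, a pairing added after seeing the data, gave the same 9.09. The labels do not say that a number marks a shared batch. Among gene lists the kept share left its Wilson interval in 1 of 10 with a 5-kb window (mitotic cell cycle, 0 of 1 region), in none with 50 kb, and in 4 of 11 with the q-value minimum (cell cycle, primed pluripotency and fibroblast genes, each with none kept, and all genes at 36.2%).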

Other observations

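A 2.5 Mb stretch of chromosome 4 (chr4:145500001-148000000) held 5 of the 12 windows of 500 kb with 9 or more Sox2 regions, and 50 regions in all. Of these, 31 had a peak in the mitotic 1 list and in neither other list, 7 were mitotic-only, 7 kept and 3 lost. It held 10 asynchronous, 45 mitotic 1 and 16 mitotic 2 peaks of Sox2, or 0.335%, 0.992% and 0.825% of each list. Oct4 had 23 asynchronous peaks there and 19 and 50 mitotic ones, and Klf4 of the same project had 47 asynchronous and 46 mitotic peaks. By chromosome, lost regions made up 42.3% of the 137 asynchronous regions of chromosome 14 and 21.1% of the 175 of chromosome 10, against 28.4% of all asynchronous regions, and the kept share ranged from 35.3% on chromosome 12 to 45.9% on chromosome 3 among chromosomes with more than 10 regions.

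The widest region, 4660 bp at chr1:24611526-24616185, was in mitotic 2 and no other Sox2 list, at a fold of 5.53. Both mitotic Oct4 lists and the mitotic Klf4 list of the same project also had a peak there, and no H3K27ac list did. A pair of wide mitotic-only regions, 2030 and 1973 bp, lay next to each other at chr10:3111245-3115302, within 6.57 kb of 9230019H11Rik. Both had a peak in all 3 Oct4 lists and in both Klf4 lists of the same project, and in no H3K27ac list.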
